A study of Homo sapiens with 4 samples.

Results

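PIK3IP1, the class IA PI3K subunit genes PIK3CA, PIK3CB, PIK3R1 and PIK3R3, the adaptor genes IRS1 and IRS2, and the transcription factor genes FOXO1 and FOXO3 were followed in RCC4 cells after PML silencing. The 9 genes were taken by name from the 59050 genes of the counts. They were chosen by the shPML over shCtrl difference of PIK3IP1, which was higher with shPML in these same libraries, to ask whether other components of the pathway differed with it. The shPML over shCtrl values of the 9 genes are therefore given as a description, without p-values. The fit across all genes includes them, and how many met its call rule is given beside the share of all genes, with nothing read from it. The difference between the experiments is independent of the choice, and its test is given.

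RCC4 is an established human line of clear cell renal cell carcinoma (ccRCC) that lacks the tumour suppressor VHL. All cells carried a doxycycline-inducible hairpin delivered by lentivirus and were selected with puromycin as bulk populations, not clones. The hairpin was shPML#1 (written shPML), against PML, or a scrambled sequence (shCtrl), and every population, the control included, received doxycycline at 100 ng/ml for 96 h. The 2 experiments used independent infections, and each gave 1 shCtrl and 1 shPML library of stranded mRNA, numbered replicate 1 and replicate 2. A single hairpin was sequenced, so an effect of that hairpin other than on PML cannot be told apart from the silencing.

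PI3K adds a phosphate to a membrane lipid to make PIP3, which recruits and activates the kinase AKT. Class IA enzymes pair a catalytic subunit, such as those of PIK3CA or PIK3CB, with a regulatory subunit, such as those of PIK3R1 or PIK3R3, that stabilizes the catalytic subunit and brings it to phosphorylated receptors or to the adaptors IRS1 and IRS2. PIK3IP1 is a transmembrane protein that binds the catalytic subunits and inhibits them. AKT phosphorylates FOXO1 and FOXO3 and keeps them out of the nucleus, where they otherwise activate genes of growth arrest, stress resistance and insulin signalling.

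Between 27781193 and 69870617 reads were counted per library. Levels are given as CPM (read counts relative to the library total, scaled by the TMM method of edgeR), and as RPKM, which also divides by gene length, where genes are compared with each other. PML was at 93.1 and 136 CPM in the shCtrl libraries and at 54.9 and 87.6 CPM in the shPML libraries, a log2 ratio of -0.76 in experiment 1 and -0.63 in experiment 2. The 6 renal epithelial markers, PAX8 and PAX2 among them, were present in all 4 libraries and summed to between 1318 and 1585 CPM. The 4 HIF targets, CA9 among them, which are high in cells without VHL, summed to 433 and 614 CPM with shCtrl and to 690 and 1055 CPM with shPML. Most of the sum was NDUFA4L2, at 260 and 371 CPM with shCtrl and 445 and 779 CPM with shPML. CA9 was at 64.7 and 107 CPM with shCtrl and at 117 CPM in both shPML libraries. The library of shPML replicate 2 stood apart by its leukocyte transcripts. PTPRC, the pan-leukocyte surface phosphatase, and LYZ, lysozyme of myeloid cells, had 346 and 2349 counts there and at most 7 in any other library, whereas the T cell marker CD3E was at 0 in all 4. The sum of the leukocyte list that holds these markers was 0.0739, 0.14 and 0.0278 CPM in shCtrl replicate 1, shPML replicate 1 and shCtrl replicate 2, and 98.0 CPM in shPML replicate 2. A list of 14 myeloid markers, written after the counts had been seen and sharing LYZ with the first list, summed to 355 CPM in shPML replicate 2 and to between 1.19 and 2.58 CPM in the other libraries. The source of these transcripts was not tested. Values of experiment 1, in which both libraries lacked them, are therefore given for the 9 genes and for the list genes named as called.

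PIK3IP1 (chr22:31281593-31292534, minus strand, GRCh38) was the gene that differed most among the 9. It was counted 334 times in shCtrl replicate 1 and 136 times in shCtrl replicate 2, against 2531 and 970 times in shPML replicates 1 and 2. In CPM it was at 6.17 and 3.78 with shCtrl and at 35.3 and 35.3 with shPML. Both shPML libraries lay far above both shCtrl libraries, and they lay closer to each other than the shCtrl libraries did. The mean level was 4.97 ± 1.69 CPM with shCtrl and 35.3 ± 0.0182 CPM with shPML (SD, n = 2 each). The SD with shPML is smaller than the counting error of 2531 and 970 counts, so it does not measure how well the level repeats. Within experiment 1 the ratio was 5.72-fold, a log2 ratio of 2.51 with a 95% interval of 2.35 to 2.69, and within experiment 2 it was 9.34-fold, a log2 ratio of 3.22 with an interval of 2.96 to 3.49. These intervals, like all those below, cover counting error only. The intervals of the experiments did not overlap. Levels with shPML were alike in the experiments, and the ratios differed with the shCtrl levels of 6.17 and 3.78 CPM. The log2 fold change over all 4 libraries was 2.82 ± 0.28 (SE) without and 2.83 ± 0.154 with the experiment as a block, and it was 2.82 with shPML replicate 2 left out. Since RNA came from whole populations, a larger share of cells with PIK3IP1 and more of it in each cell cannot be told apart. The gene overlaps the antisense gene PIK3IP1-AS1 on the opposite strand, which had at most 9 counts in any library.

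**Figure D1:**
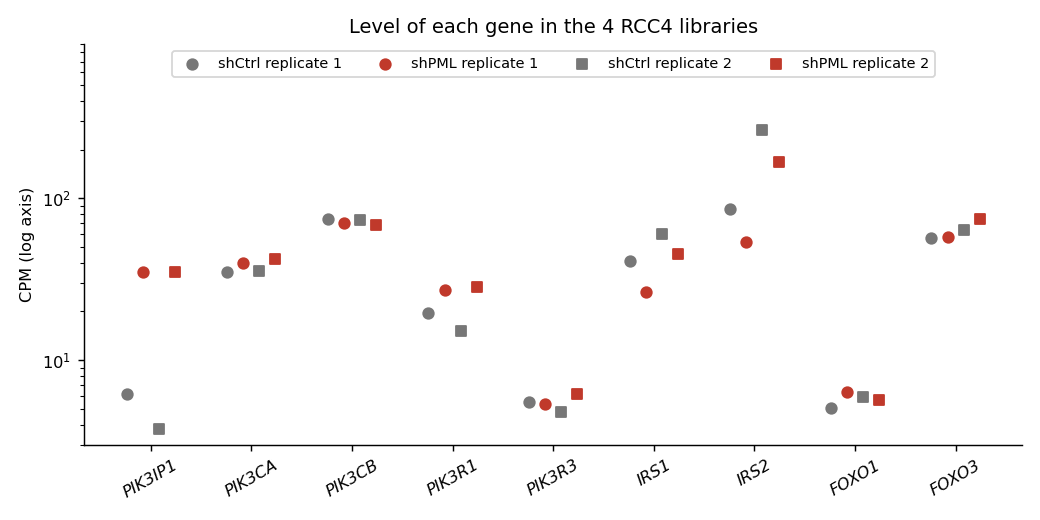
Each point is the level of a gene in 1 library, in CPM on a log axis, with shCtrl in grey, shPML in red, circles for replicate 1 and squares for replicate 2. Both shPML points of PIK3IP1 sit at 35.3 CPM above shCtrl points of 3.78 and 6.17 CPM, and the squares of IRS2 sit above its circles.

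The start of PIK3IP1 is shown because PIK3IP1 is the gene around which the others were chosen and FOXO factors are among them. FOXO factors recognize the core TGTTTAC, and some of their insulin-response elements read TGTTTTG, letters that share their first 5 bases. Both were searched on both strands in windows of 300 bases, 250 before and 50 after each RefSeq transcript start of GRCh38.p14. All 9 genes had at least 1 window, 22 in all, and 3 of the windows held 1 match each. The PIK3IP1 match lies on the strand of the gene at chr22:31292466-31292472, 16 bases after a start and so inside the gene span. The PIK3CA match lies at chr3:179148208-179148214, 149 bases before a start, and the IRS2 match at chr13:109786617-109786623, 40 bases before a start. PIK3IP1 had another window as well, at the start that coincides with the end of its span in the counts, and it held 0 matches. The whole PIK3IP1 window that holds the match (chr22:31292439-31292738, minus strand) and the stretches around the other matches (chr3:179148168-179148254, plus strand, and chr13:109786577-109786663, minus strand) read as follows, 5′ to 3′, with the motif in capitals.
PIK3IP1: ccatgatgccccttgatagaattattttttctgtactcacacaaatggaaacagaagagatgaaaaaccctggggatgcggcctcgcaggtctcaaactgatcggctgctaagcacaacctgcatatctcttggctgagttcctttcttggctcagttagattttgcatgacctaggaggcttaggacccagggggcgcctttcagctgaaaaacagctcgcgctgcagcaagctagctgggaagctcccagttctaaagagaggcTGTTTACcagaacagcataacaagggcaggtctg
PIK3CA: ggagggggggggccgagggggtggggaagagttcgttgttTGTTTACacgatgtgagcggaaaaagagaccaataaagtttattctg
IRS2: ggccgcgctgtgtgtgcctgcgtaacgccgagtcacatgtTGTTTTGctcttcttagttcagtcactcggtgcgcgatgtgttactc
TGTTTAC was found for 2 of the 9 genes, against 4.19% of all 27305 genes with a window and 3.42% of all 35116 windows. TGTTTTG was found for 1 of the 9, against 6.05% of all genes and 4.92% of all windows. The 9 genes have 22 windows, more per gene than the 35116 windows of all 27305 genes, so the shares by gene are not a like comparison. By window, TGTTTAC was in 2 and TGTTTTG in 1 of the 22. These are counts of letters and not of bound sites.

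Catalytic subunits differed little between the conditions. PIK3CA (chr3:179148357-179240093, plus strand), which encodes the alpha subunit, was at 34.9 and 35.8 CPM with shCtrl and at 40.1 and 42.0 CPM with shPML. The libraries of the conditions did not overlap, but the distance was small, with a log2 ratio of 0.20 (0.11 to 0.28) in experiment 1 and 0.23 (0.12 to 0.35) in experiment 2. PIK3CB (chr3:138652699-138834752, minus strand), the beta subunit, was at 74.8 and 74.0 CPM with shCtrl and at 70.1 and 68.7 CPM with shPML. It was slightly lower with shPML in both experiments, with log2 ratios of -0.094 (-0.15 to -0.034) and -0.11 (-0.19 to -0.021). PIK3CA shares exon positions with KCNMB3 on the opposite strand, which had between 101 and 331 counts.

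Of the regulatory subunits, PIK3R1 was higher with shPML and PIK3R3 was not separated. PIK3R1 (chr5:68215756-68301821, plus strand), which encodes the main regulatory subunit and its shorter forms, was at 19.6 and 15.2 CPM with shCtrl and at 27.1 and 28.2 CPM with shPML. Both shPML libraries were above both shCtrl libraries, and the means were 17.4 ± 3.15 and 27.6 ± 0.751 CPM (SD, n = 2 each). The ratio was 1.38-fold in experiment 1, a log2 ratio of 0.47 (0.36 to 0.57), and 1.86-fold in experiment 2, a log2 ratio of 0.89 (0.73 to 1.05). Experiment 1 gave the smaller ratio here as well. The shCtrl libraries lay further apart, at 19.6 and 15.2 CPM, than the shPML libraries, at 27.1 and 28.2 CPM. PIK3R3 (chr1:46040140-46133036, minus strand), another regulatory subunit, was at 5.49 and 4.78 CPM with shCtrl and at 5.37 and 6.18 CPM with shPML. Its ratio was on opposite sides of 0 in the experiments, at -0.031 (-0.25 to 0.19) and 0.37 (0.058 to 0.69) on the log2 scale.

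Both IRS genes were lower with shPML in each experiment, while their levels differed strongly between the experiments. IRS1 (chr2:226731317-226799759, minus strand) was at 41.2 CPM in shCtrl replicate 1 and 26.5 CPM in shPML replicate 1, and at 60.1 and 45.6 CPM in the same order in replicate 2. The ratio was 0.644-fold and 0.758-fold, with log2 ratios of -0.64 (-0.72 to -0.55) and -0.40 (-0.50 to -0.30). IRS2 (chr13:109752695-109786583, minus strand) was at 86.1 CPM in shCtrl replicate 1 and 53.7 CPM in shPML replicate 1, and at 266 and 167 CPM in replicate 2. Its ratio was 0.623-fold and 0.628-fold, a log2 ratio of -0.68 (-0.74 to -0.62) in experiment 1 and -0.67 (-0.72 to -0.62) in experiment 2. For both genes the shPML library of replicate 2 was above the shCtrl library of replicate 1, so the conditions overlap when the experiments are pooled. The log2 fold change of IRS2 was accordingly -0.68 ± 0.701 (SE) without a block and -0.68 ± 0.102 with the experiment as a block, and that of IRS1 was -0.49 ± 0.323 and -0.52 ± 0.12.

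The FOXO genes did not separate the conditions. FOXO1 (chr13:40555667-40666641, minus strand) was at 5.10 and 5.89 CPM with shCtrl and at 6.32 and 5.64 CPM with shPML, with log2 ratios of 0.31 (0.090 to 0.53) and -0.063 (-0.37 to 0.24) in experiments 1 and 2. FOXO3 (chr6:108559835-108684774, plus strand) was at 57.2 and 64.0 CPM with shCtrl and at 57.3 and 74.6 CPM with shPML. Its log2 ratio was 0.0046 (-0.063 to 0.072) in experiment 1 and 0.22 (0.13 to 0.31) in experiment 2. FOXO3B, a near-identical copy of FOXO3, had between 87 and 283 counts, and reads could be split between the copies. RNA levels do not show where the FOXO proteins are or whether they are phosphorylated.

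**Figure D2:**
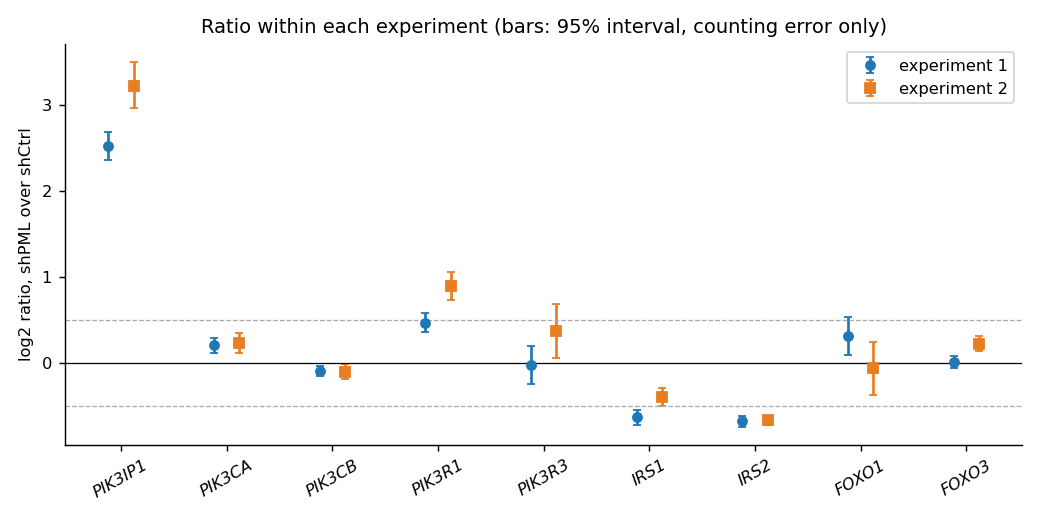
Each point is the log2 ratio of shPML over shCtrl within experiment 1 (blue circles) or experiment 2 (orange squares), with a bar for the 95% interval of counting error and dashed lines at 0.5 and -0.5. PIK3IP1 lies at 2.51 and 3.22, and the other 8 genes lie between -0.68 and 0.89.

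A gene met the call rule when edgeR's quasi-likelihood test gave a Benjamini-Hochberg adjusted p under 0.05 with a log2 fold change beyond 0.5. Without a block, PIK3IP1 met it and 0 of the 9 genes met it on the lower side, while 0.0787% of the 16516 tested genes met it as higher and 0.333% as lower. With the experiment as a block, 2 met it as higher, PIK3IP1 and PIK3R1, and 2 as lower, IRS1 and IRS2, while 8.57% of all tested genes met it as higher and 10.5% as lower. With any of shCtrl replicate 1, shCtrl replicate 2 or shPML replicate 2 left out, 0 of all tested genes met it in either direction, so PIK3IP1 did not meet it in these fits. All 9 genes passed the filter on low counts. Both shPML libraries lay above both shCtrl libraries for 3 of the 9 (23.1% of all tested genes) and below for 1 (24.9%), and the conditions overlapped for 5. In experiment 1 alone, without a test, the log2 ratio was beyond 0.5 on the higher side for 1 of the 9, PIK3IP1, against 14.5% of all tested genes, and on the lower side for 2, IRS1 and IRS2, against 17.9%. The same contrast chose the genes, so these counts do not bear on whether the set is unusual.

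The difference between the experiments did not enter the choice of the genes and was tested with the condition as a term. IRS2 was 3.10-fold higher in experiment 2 than in experiment 1, a log2 fold change of 1.63 ± 0.104 (SE, adjusted p = 7.49e-20, edgeR). IRS1 was 1.58-fold higher, a log2 fold change of 0.66 ± 0.12 (adjusted p = 1.62e-05, edgeR). Both were higher in experiment 2 in the shCtrl pair and in the shPML pair. These were the only ones of the 9 genes that met the call rule in this comparison, 2 higher and 0 lower, where 8.93% of all tested genes were called higher and 4.53% lower. FOXO3 was at 0.27 ± 0.115 (adjusted p = 0.0777, edgeR) and PIK3IP1 at -0.29 ± 0.148 (adjusted p = 0.156, edgeR), and neither passed. Infection and sequencing depth differed together between the experiments, culture may have differed too, and these cannot be told apart. The experiment 2 side also holds shPML replicate 2, the library with the leukocyte transcripts. Their part in this comparison was not tested.

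Per length, IRS2 was the most abundant of the 9 genes with shCtrl, at 21.6 ± 15.6 RPKM, followed by PIK3CB at 12.4 ± 0.103, FOXO3 at 7.90 ± 0.633, IRS1 at 5.22 ± 1.38 and PIK3CA at 3.78 ± 0.0617 RPKM (SD, n = 2 each). PIK3R1 at 2.25 ± 0.408, PIK3IP1 at 1.81 ± 0.615, FOXO1 at 0.951 ± 0.0967 and PIK3R3 at 0.865 ± 0.0845 RPKM followed. IRS2 and PIK3CB, PIK3R1 and PIK3IP1, and FOXO1 and PIK3R3 were neighbours whose libraries overlapped. With shPML, PIK3IP1 stood in the second place by mean, at 12.8 ± 0.00661 RPKM. It lay between IRS2 at 13.5 ± 9.83 and PIK3CB at 11.6 ± 0.168 RPKM. The place of IRS2 rests on shPML replicate 2, at 20.5 RPKM. In shPML replicate 1 IRS2 was at 6.58 RPKM, below PIK3IP1, PIK3CB and FOXO3 at 12.8, 11.7 and 7.48 RPKM. The shPML libraries of PIK3IP1 and IRS2 overlapped, as did those of FOXO1 and PIK3R3. PIK3CA, IRS1 and PIK3R1 were in neighbouring places at 4.40 ± 0.144, 3.71 ± 1.39 and 3.58 ± 0.0972 RPKM. The libraries of IRS1 overlapped those of both PIK3CA and PIK3R1, which did not overlap each other. FOXO3 was at 8.60 ± 1.59 RPKM. As in CPM, the SD of PIK3IP1 with shPML is smaller than counting error.

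**Figure D3:**
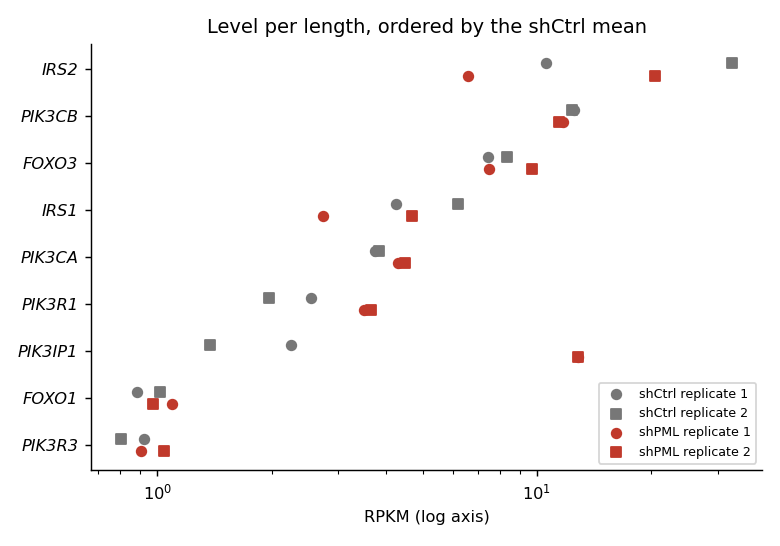
Each row is a gene and each point a library, with the level per length in RPKM on a log axis, shCtrl in grey and shPML in red, and the rows in the order of the shCtrl means. PIK3IP1 moves from 1.81 RPKM on average with shCtrl to 12.8 RPKM with shPML, and the points of IRS2 spread most.

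Summed per length, the class IA catalytic genes PIK3CA, PIK3CB and PIK3CD were nearly level across the libraries, at 25.3, 24.8, 26.7 and 26.4 RPKM in shCtrl replicate 1, shPML replicate 1, shCtrl replicate 2 and shPML replicate 2. PIK3CD, the delta subunit best known from leukocytes and named here after its values were seen, held 9.11, 8.79, 10.6 and 10.5 RPKM of these sums, and its highest value was in shCtrl replicate 2. The regulatory genes PIK3R1 and PIK3R3 summed to 3.46, 4.41, 2.77 and 4.69 RPKM in the same order. The ratio of the catalytic sum to the sum of PIK3R1 and PIK3R3 was 7.31 and 9.66 with shCtrl and 5.62 and 5.63 with shPML. The conditions did not overlap, and as the catalytic sums were nearly level, this mostly repeats the difference in PIK3R1. PIK3R2, a further regulatory gene, had at most 1 count in any library and shares exon positions with another gene model on its strand, so it was left out of the sum and its level is not known from these counts. The ratio of IRS2 to IRS1, with shCtrl first, was 2.49 and 2.41 in the libraries of experiment 1 and 5.26 and 4.36 in those of experiment 2, higher in experiment 2 in both conditions and lower with shPML in both experiments by a smaller distance.

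The genes whose pattern over the 4 libraries was closest to PIK3IP1, by the root mean square distance between log2 CPM values centred on their means, were PLAT, TMEM140, LINC01772, AC114980.1 and F2RL2, at distances from 0.113 to 0.192 on the log2 scale. PLAT, which encodes tissue plasminogen activator, was at 7.22 and 3.92 CPM with shCtrl and at 33.1 and 36.7 CPM with shPML. TMEM140 was at 1.15 and 0.833 CPM with shCtrl and at 6.26 and 7.09 CPM with shPML, and F2RL2, a thrombin receptor gene, at 1.70 and 0.945 CPM with shCtrl and at 6.96 and 7.53 CPM with shPML. LINC01772 and AC114980.1 had between 1 and 21 counts per library. Among the other 8 genes PIK3R1 was nearest to PIK3IP1, but only at a distance of 1.10. It ranked 1243 in closeness among the 16516 tested genes.

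Other genes of the pathway were followed on 6 lists with 104 genes in all, of which 93 were tested. Without a block, edgeR called 0 of them in either direction (13 higher and 55 lower of all 16516 tested genes). In that fit 20 higher and 5 lower had an unadjusted p below 0.05 (1289 and 1669 of all 16516 tested genes). DESeq2 called 5 higher and 2 lower (545 and 845 of its 15138 tested genes). With the experiment as a block, edgeR called 16 higher and 5 lower, where 8.57% of all tested genes were called higher and 10.5% lower. The counts of each list below stand beside these same shares, and the lists are small. The median log2 fold change of the 93 was 0.16 without a block, beside 0.0095 for all tested genes. Their median log2 ratio was 0.086 in experiment 1 and 0.20 in experiment 2, beside 0.0016 and 0 for all tested genes. In experiment 1 the log2 ratio of 13 of the 16 and of all 5 was also beyond 0.5 in the same direction, without a test. The exceptions were PIK3AP1, SGK3 and CDKN1A. Among all tested genes the same held for 1119 of the 1415 called higher and 1530 of the 1735 called lower. Experiment 1 is part of the fit that made these calls, so this is no separate check of them. All adjusted p-values of list genes below are from the edgeR fit with the block, over all tested genes.

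Among other PI3K subunits and partners, 7 of 11 were tested. With the block, 1 rose and 1 fell, beside 8.57% and 10.5% of all tested genes. The median log2 fold change without a block was 0.15, and the median log2 ratio was 0.21 in experiment 1 and 0.052 in experiment 2. PIK3C2A, a class II PI3K of endocytic membranes, was at 87.8 and 87.4 CPM with shCtrl and at 61.4 and 59.3 CPM with shPML, a log2 fold change of -0.54 ± 0.112 (SE, adjusted p = 0.000101). PIK3AP1, an adaptor of B cell and innate immune signalling, was at 8.89 and 5.86 CPM with shCtrl and at 11.0 and 15.3 CPM with shPML (log2 fold change 0.82 ± 0.19, adjusted p = 0.000462). Its log2 ratio was 0.30 in experiment 1 and 1.38 in experiment 2, where the shPML library carried the leukocyte transcripts. PIK3R5 and PIK3CG, partners in the class IB PI3K of leukocytes and named here after their values were seen, had 144 and 7 counts in shPML replicate 2 and at most 5 and 0 in the other libraries. They moved with the sum of the leukocyte list, at 98.0 CPM in that library and at most 0.14 CPM in the others, and the part of those transcripts in these values was not tested.

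**Figure D4:**
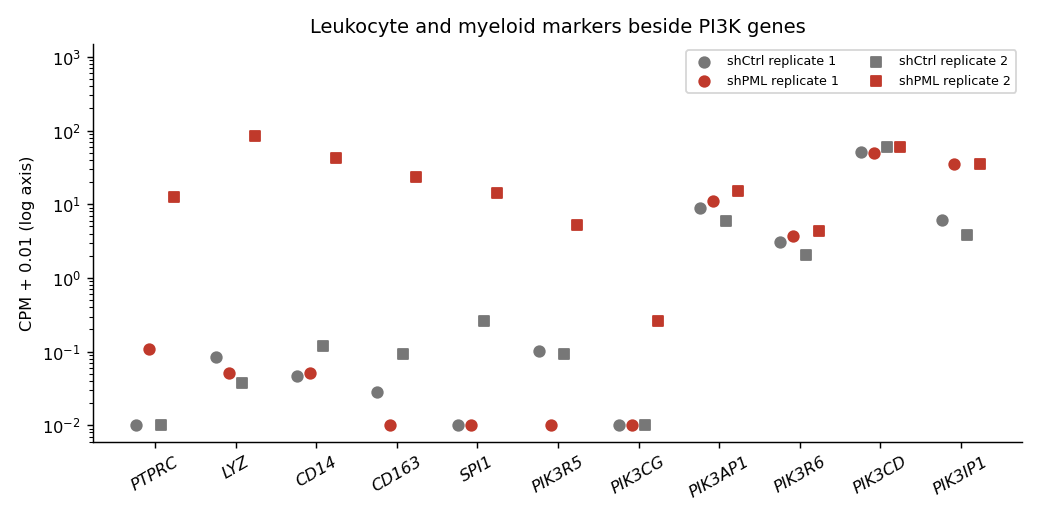
Each point is a gene in 1 library, in CPM plus 0.01 on a log axis, with shCtrl in grey, shPML in red, circles for replicate 1 and squares for replicate 2. The red squares of the leukocyte and myeloid genes and of PIK3R5 and PIK3CG stand apart from the other points, while both red points of PIK3IP1 lie at 35.3 CPM.

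Among receptors and adaptors, 14 of 16 were tested. With the block, 3 rose and 2 fell, beside 8.57% and 10.5% of all tested genes. The median log2 fold change without a block was 0.18, and the median log2 ratio was 0.14 in experiment 1 and 0.22 in experiment 2. SHC1, an adaptor that links receptors to RAS, was at 159 and 164 CPM with shCtrl and at 250 and 268 CPM with shPML (log2 fold change 0.68 ± 0.0992, adjusted p = 1.04e-07). SOCS3, an inducible inhibitor of cytokine receptors that can also target IRS proteins, was at 16.3 and 22.1 CPM with shCtrl and at 28.3 and 46.6 CPM with shPML (log2 fold change 0.93 ± 0.128, adjusted p = 2.06e-08). Its log2 ratio was 0.79 in experiment 1 and 1.07 in experiment 2. Without a block the log2 fold change was 0.96 with all libraries and 0.56 with shPML replicate 2 left out. The latter fit keeps shCtrl of both experiments, so it also holds the difference between the experiments. GRB14, which inhibits the insulin receptor, rose by 0.55 ± 0.196 (adjusted p = 0.0257), with a log2 ratio of 0.62 in experiment 1. GRB2, the partner of SHC1, was at 117 and 125 CPM with shCtrl and at 78.5 and 85.2 CPM with shPML (log2 fold change -0.56 ± 0.107, adjusted p = 2.37e-05). CBL, a ubiquitin ligase of activated receptors, was at -0.70 ± 0.12 (adjusted p = 4.07e-06) and at -0.82 in experiment 1. Of the phosphoinositide phosphatases, all 10 were tested. With the block, 1 rose and 0 fell, beside 8.57% and 10.5% of all tested genes. The median log2 fold change without a block was 0.089, and the median log2 ratio was -0.057 in experiment 1 and 0.21 in experiment 2. The riser was INPP5K, a phosphatase that removes the 5-phosphate, at 29.5 and 31.7 CPM with shCtrl and 43.1 and 44.1 CPM with shPML (log2 fold change 0.51 ± 0.121, adjusted p = 0.000622). INPP5D, a phosphatase best known from blood cells and named here after its values were seen, was at 0.684, 0.474 and 0.695 CPM in shCtrl replicate 1, shPML replicate 1 and shCtrl replicate 2 and at 4.22 CPM in shPML replicate 2, the library with the leukocyte transcripts, and was not called (adjusted p = 0.151).

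In the AKT and mTOR arm all 23 genes were tested. With the block, 3 rose and 1 fell, beside 8.57% and 10.5% of all tested genes. The median log2 fold change without a block was 0.19, and the median log2 ratio was 0.18 in experiment 1 and 0.20 in experiment 2. AKT2, the AKT isoform best known for insulin responses, was at 187 and 212 CPM with shCtrl and at 99.4 and 122 CPM with shPML (log2 fold change -0.86 ± 0.102, adjusted p = 4.38e-10). Both shPML libraries were below both shCtrl libraries. TSC1, a subunit of the complex that restrains mTORC1, was at 43.7 and 31.2 CPM with shCtrl and at 62.6 and 59.1 CPM with shPML (log2 fold change 0.71 ± 0.121, adjusted p = 2.95e-06). SGK2 and SGK3, kinases related to AKT, rose by 0.67 ± 0.235 (adjusted p = 0.0246) and 0.58 ± 0.151 (adjusted p = 0.00182), with log2 ratios of 0.58 and 0.46 in experiment 1.

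Among the other FOXO family members and regulators, 10 of 11 were tested. With the block, 1 rose and 1 fell, beside 8.57% and 10.5% of all tested genes. The median log2 fold change without a block was 0.077, and the median log2 ratio was 0.0078 in experiment 1 and 0.086 in experiment 2. FOXO4 was at 1.05 and 1.64 CPM with shCtrl and at 2.83 and 2.66 CPM with shPML (log2 fold change 1.07 ± 0.392, adjusted p = 0.031). SKP2, a ubiquitin ligase subunit that targets FOXO1 and also drives S phase entry, was at 25.7 and 35.5 CPM with shCtrl and at 11.7 and 14.6 CPM with shPML (log2 fold change -1.21 ± 0.134, adjusted p = 4.93e-11). Of the FOXO targets, 30 of 34 were tested. With the block, 7 rose and 0 fell, beside 8.57% and 10.5% of all tested genes. The median log2 fold change without a block was 0.22, and the median log2 ratio was 0.22 in experiment 1 and 0.24 in experiment 2. SOD2, the mitochondrial superoxide dismutase, was at 469 and 496 CPM with shCtrl and at 1068 and 1122 CPM with shPML (log2 fold change 1.18 ± 0.0921, adjusted p = 2.04e-16). BCL6, a transcriptional repressor, was at 7.98 and 7.58 CPM with shCtrl and at 14.3 and 17.5 CPM with shPML (log2 fold change 1.02 ± 0.166, adjusted p = 1.20e-06). BBC3, which encodes the apoptosis inducer PUMA, was at 27.9 and 36.3 CPM with shCtrl and at 42.9 and 90.8 CPM with shPML (log2 fold change 0.97 ± 0.128, adjusted p = 8.08e-09). The log2 ratio of BBC3 was 0.62 in experiment 1 and 1.32 in experiment 2. Without a block its log2 fold change was 1.06 with all libraries and 0.42 with shPML replicate 2 left out. As for SOCS3, the latter fit also holds the difference between the experiments. The other 4 were TRIB1, SESN1, CDKN1A and TXNIP, at log2 ratios of 0.78, 0.72, 0.34 and 0.64 in experiment 1. Of the 7, CDKN1A, SESN1 and BBC3 are also known targets of p53.

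**Figure D5:**
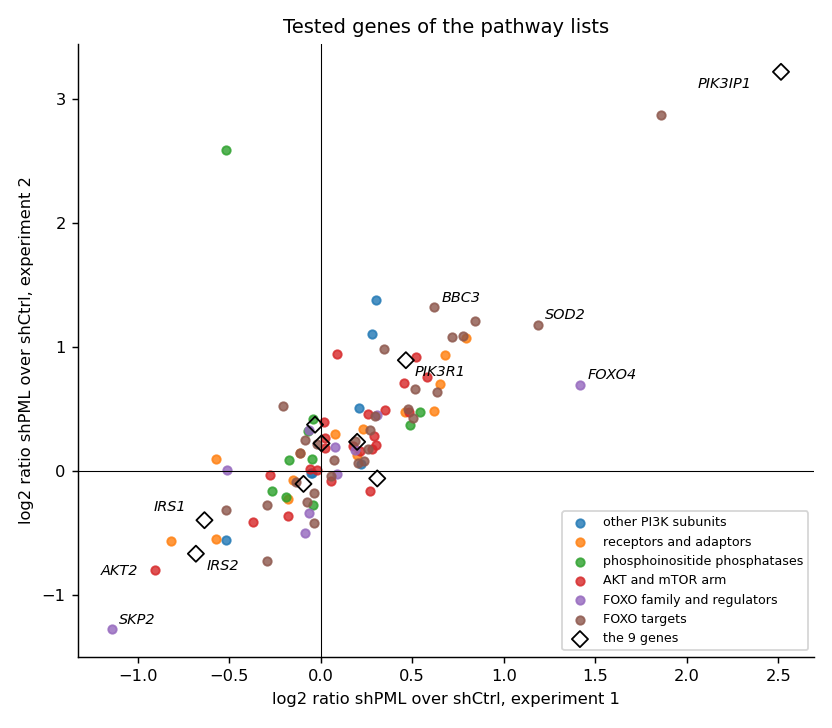
Each filled point is a tested gene of the 6 pathway lists, coloured by list, and each open diamond one of the 9 genes, with the log2 ratio of shPML over shCtrl in experiment 1 on the horizontal and in experiment 2 on the vertical axis. PIK3IP1 lies at 2.51 and 3.22, at the far end of both axes, INPP5D at -0.52 and 2.58, SOD2 at 1.19 and 1.18, and SKP2 at -1.14 and -1.28.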

How the data were processed

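RNA of 4 RCC4 libraries was analysed, 2 with shCtrl and 2 with shPML. The authors trimmed reads with Trimmomatic 0.39, used STAR for alignment to GRCh38 and featureCounts 1.6.4 for counting on Gencode genes, per the labels and the methods. The Gencode release and the strand setting are not given in the sources used here, so reads of overlapping genes may be shared. The deposited values are raw counts. The labels used are those after a correction by the submitters, who note a swap of 2 samples. Columns that carry no number were read as replicate 1, since their counterparts are numbered 2. Replicate numbers were read as the experiments. The deviations of the replicate 1 libraries from their group means correlated at 0.544 over genes, which are no independent replicates.

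The counts were tested with edgeR 4.0.16 (filterByExpr, TMM, quasi-likelihood test) without a block, with the experiment as a block as an alternative, and with DESeq2 1.42.0 (R 4.3.3). Levels and ratios were computed in Python 3.11.15 (pandas 2.3.3, scipy 1.17.1). The experiments were compared in the fit with both terms. No exact permutation test was run, because its smallest two-sided p for 2 against 2 libraries is 0.333. Other alternatives were RLE normalization, no filter, at least 10 counts in every library, each library left out in turn, and experiment 1 alone, which was added after the counts were seen. The 9 genes and the 6 lists were chosen with earlier results of these data known, and the lists come from general knowledge. Named genes are the 9, PML, each called list gene (with or without the block) or, in lists with more than 6 calls, the 3 with the largest change in each direction, the 5 nearest patterns and overlapping genes or copies. Others were named after their values were seen, as were the myeloid markers. Promoter sequences and starts came from RefSeq. Protein sequences were not used here. A marker of the leukocyte list is not reported here by name.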

Additional observations from a re-analysis of the deposited data

How the results depend on the processing

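Of the 9 genes, edgeR called 1 higher and 0 lower without a block. The replicate block, the experiment as a term, gave 2 higher and 2 lower in edgeR, and 2 and 2 in DESeq2 with the same block. RLE normalization gave 0 higher (smallest adjusted p over all genes 0.0501, against 0.0484 with TMM), no filter on low counts gave 1 lower, and experiment 1 alone, without a test, gave 2 lower. Leaving out 1 library gave from 0 to 1 higher. Of the 104 pathway genes, 93 were tested in the fit without a block, and 0 were called in either direction there. Higher and lower calls numbered 16 and 5 with the replicate block, 5 and 2 in DESeq2, and 11 and 5 in DESeq2 with the block. They numbered 10 and 3 without the filter, and 17 and 9 in experiment 1 alone. The genes tested differed between settings. Over all tested genes, DESeq2 called 545 and 845 of 15138, and 998 and 1297 of 13477 with the block. Without the filter 891 and 946 of 30093 were called, and with at least 10 counts 53 and 144 of 14197. In experiment 1 alone it was 2402 and 2957 of 16516. At least 10 counts in every library gave 1 higher, and leaving out 1 library gave from 0 to 1. The cause of these moves was not tested. Over the 10 settings the log2 fold change of PIK3IP1 ranged from 2.51 to 3.24 and that of PIK3R1 from 0.49 to 0.88, while IRS2 ranged from -1.71 to 0.35 because a fit without a block compares libraries of different experiments once 1 is left out. The 2 calls in the comparison of the experiments were the same in number in all 5 alternatives tried for it.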
